A study of Homo sapiens with 4 samples.

Results

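The clade B serpins of keratinocytes are 10 members of one gene family, most of them intracellular protease inhibitors. They are SERPINB1, SERPINB2, SERPINB3, SERPINB4, SERPINB5, SERPINB6, SERPINB7, SERPINB8, SERPINB9 and SERPINB13. They were taken by gene symbol and not by a limit on any measured value, but with earlier results of these data known. Each was found once among the 44591 genes of the files, 19233 of which are protein-coding. RNA sequencing was performed in HaCaT, a spontaneously immortalized line of human skin keratinocytes, in 4 replicates. The labels name no genetic change, and the cells were grown in Dulbecco's modified Eagle medium with fetal bovine serum (12% by the labels, while the study's methods give another percentage) and left untreated. There was 1 condition and no comparison group, so levels were compared between genes and between replicates. HaCaT is a single immortalized line grown without tissue layers, which limits it as a model of epidermis.

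Serpins trap a protease by offering it a bait, the exposed reactive centre loop. When the protease cuts the loop, the serpin refolds and drags the enzyme into an inactive covalent complex. Clade B serpins lack a classical secretion signal, and most of them act inside the cell, where they guard against proteases that leak from lysosomes and granules. In stratified epithelia several of them rise with differentiation and act on the proteases of cornification and shedding.

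SERPINB3 and SERPINB4, the former squamous cell carcinoma antigens, are neighbouring copies on chromosome 18 and the most alike pair of the family, so their upstream and coding sequences are shown side by side. In the 250 bases before the transcription start (GRCh38.p14, minus strand, RefSeq, chr18:63661894-63662143 and chr18:63644257-63644506), they differed at 3 positions, which are in capitals.
SERPINB3: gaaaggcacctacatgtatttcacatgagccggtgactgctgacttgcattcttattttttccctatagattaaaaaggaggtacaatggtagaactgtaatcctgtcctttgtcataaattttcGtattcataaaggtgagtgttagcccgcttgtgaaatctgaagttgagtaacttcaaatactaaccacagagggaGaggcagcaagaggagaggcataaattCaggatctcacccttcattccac
SERPINB4: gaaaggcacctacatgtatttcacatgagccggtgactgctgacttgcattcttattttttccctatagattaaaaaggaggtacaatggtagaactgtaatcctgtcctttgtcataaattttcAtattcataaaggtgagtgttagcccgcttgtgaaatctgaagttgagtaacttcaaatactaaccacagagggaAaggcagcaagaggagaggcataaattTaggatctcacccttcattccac

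Their coding sequences in GENCODE release 29 have 1170 bases each, of which 56 differed, so 95.2% were identical. The differences were not spread evenly. A window of 90 bases held a median of 3, whereas the densest one, coding bases 969 to 1058, held 13 and is printed with the differing bases in capitals (GRCh38, minus strand, exonic, chr18:63655772-63655861 and chr18:63637834-63637923). This transcribed stretch, where reads can tell the pair apart, encodes amino acids before and in the reactive centre loop. The loop is the segment that decides which protease is trapped. SERPINB3 inhibits lysosomal cysteine proteases such as cathepsins L, S and K, and SERPINB4 inhibits chymotrypsin-like serine proteases such as cathepsin G and mast cell chymase.
SERPINB3: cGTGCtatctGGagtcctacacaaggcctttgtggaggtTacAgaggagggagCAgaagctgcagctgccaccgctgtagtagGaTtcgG
SERPINB4: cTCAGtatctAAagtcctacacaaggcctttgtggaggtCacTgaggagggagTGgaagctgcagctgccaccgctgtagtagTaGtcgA

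SERPINB5 and SERPINB9 had the highest and the lowest level of the 10, and their upstream sequences are printed with CpG dinucleotides in capitals (GRCh38.p14, RefSeq, chr18:63476708-63476957 on the plus strand and chr6:2903310-2903559 on the minus strand). The SERPINB9 run held 27 CpG dinucleotides and the SERPINB5 run held 13.
SERPINB5: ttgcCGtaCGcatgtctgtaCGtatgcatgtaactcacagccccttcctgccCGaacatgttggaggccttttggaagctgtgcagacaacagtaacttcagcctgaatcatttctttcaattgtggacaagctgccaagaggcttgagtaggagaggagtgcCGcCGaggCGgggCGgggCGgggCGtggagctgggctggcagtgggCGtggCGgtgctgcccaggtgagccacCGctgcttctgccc
SERPINB9: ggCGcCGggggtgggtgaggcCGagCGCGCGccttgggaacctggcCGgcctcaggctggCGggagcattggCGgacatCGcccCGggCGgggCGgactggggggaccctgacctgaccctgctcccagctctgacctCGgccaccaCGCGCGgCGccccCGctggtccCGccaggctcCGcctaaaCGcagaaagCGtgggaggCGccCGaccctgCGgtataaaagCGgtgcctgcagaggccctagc

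Levels are transcripts per 1000000 (TPM), computed over the protein-coding genes of each replicate from the read counts and gene lengths. Of the 10 members, 9 had a mean TPM above 1 and were called detected, and SERPINB9 was not. Among all protein-coding genes, 63.3% were detected at this limit. The 10 members together made up 4761, 1856, 1237 and 1275 TPM in replicates 1 to 4. In replicate 1 this was 0.476% of the protein-coding TPM, in the other three between 0.124% and 0.186%. SERPINB5 alone held 80.6, 43.9, 54.8 and 50.5% of the sum. Without it, the other 9 members summed to 926, 1041, 559 and 631 TPM, so that replicate 2 and not replicate 1 was the highest. Scaled over all genes of the files in place of the protein-coding ones, the 10 members summed to 1474, 1645, 1082 and 1185 TPM and the 9 without SERPINB5 to 287, 923, 489 and 587 TPM, both highest in replicate 2.

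The libraries held 73082279, 17056035, 19745170 and 19083836 counts, and replicate 1 stood apart from the others in more than depth. Protein-coding genes took 76.1% of its counts and 95.3 to 96.4% of those of the other replicates. With all genes in the scaling, non-coding ones included, protein-coding genes held 31.0% of the TPM in replicate 1 and 87.4 to 93.0% in the others. This lowers every protein-coding value of replicate 1 by 1.69 on the log2 scale and those of the others by 0.10 to 0.19, so where replicate 1 stands among the 4 values of a gene depends on the scaling, which is said beside the gene. Levels of different genes within a replicate keep their order under both scalings. Across 11889 genes, the difference of replicate 1 from the mean had a Spearman rho of -0.51 with GC content, against 0.24 to 0.38 in the other replicates. The difference of replicate 3 had a rho of -0.42 with gene length across 12165 genes, against 0.10 to 0.25 in the others. All 7 keratinocyte markers were detected, among them KRT14 with 6847 ± 561 TPM (SD, n = 4) and KRT5 with 3244 ± 1504 TPM. Of the markers of other cell types, the melanocyte list summed to 1.36 to 3.52 TPM with TYR at 0, the leukocyte list to 3.51 to 8.92 TPM with MPO at 0, and the endothelial list to 0.859 to 2.36 TPM with PECAM1 at 0. PMEL and CD14 of these lists were detected, with means of 1.97 and 6.25 TPM, and CD14 made up most of the leukocyte sum. The endothelial VWF and CDH5, not detected by their means, were at 2.36 TPM in replicate 1 and at 1.49 TPM in replicate 4, respectively. The fibroblast list summed to 5.20 to 9.60 TPM, with COL1A1 and LUM detected at means of 3.96 and 1.23 TPM.

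SERPINB5 (chr18:61144144-61172318, plus strand, positions as deposited on hg19) encodes maspin, a serpin of epithelial cells that does not inhibit proteases and is lost in many invasive carcinomas. Its level was 3836, 815, 678 and 644 TPM in replicates 1 to 4, from 245399, 14265, 16050 and 12634 reads. In 4 of 4 replicates it led the family, and only 100 protein-coding genes had a higher mean. The mean was 1493 ± 1563 TPM (SD, n = 4), a spread that came from 1 library, since replicate 1 was 5.38 times the mean of the others. Without it the mean was 712 ± 90.4 TPM (n = 3) and the highest of the 3 was 1.27 times the lowest. Under the scaling over all genes, SERPINB5 was 1187, 722, 593 and 599 TPM, and the range was 2.0-fold in place of 5.96-fold. Replicate 1 was the highest in both scalings.

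SERPINB2 (chr18:61554939-61571124, plus strand) encodes plasminogen activator inhibitor type 2, an inhibitor of urokinase and of tissue plasminogen activator that is also built into the cornified envelope. Its level was 166, 470, 223 and 87.6 TPM, a mean of 237 ± 165 TPM (SD, n = 4). Here replicate 2 was the highest and replicate 4 the lowest, a 5.36-fold range between libraries of similar depth. When all genes entered the scaling, replicate 1 was the lowest with 51.4 TPM, replicate 2 was still the highest with 416 TPM, and the range was 8.10-fold. Urokinase itself, PLAU, was at 230, 167, 94.0 and 209 TPM, lowest in replicate 3, or in replicate 1 when scaled over all genes. Tissue plasminogen activator, PLAT, was at 10.2, 23.1, 7.43 and 31.5 TPM. The urokinase receptor PLAUR was at 9.43, 65.3, 49.3 and 34.3 TPM, and plasminogen, PLG, was listed at 0 in 4 of 4. SERPINB2 was thus above PLAU in replicates 2 and 3 and below it in replicates 1 and 4. In GENCODE, 23.7% of the 50-base windows of the SERPINB2 transcript also occur in a transcript of its neighbour SERPINB10, which had a mean of 2.54 TPM.

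SERPINB13 (chr18:61254534-61266433, plus strand), also called hurpin or headpin, inhibits cathepsins L and K and was first cloned from HaCaT cells as a gene repressed by ultraviolet light. It was at 384, 195, 57.3 and 188 TPM, with a mean of 206 ± 135 TPM (SD, n = 4). Replicates 2 and 4 lay close together, replicate 1 above them and replicate 3 below, and the 6.70-fold range was the widest among the detected members. Scaled over all genes the values were 119, 172, 50.1 and 175 TPM, a 3.49-fold range in which replicate 3 was still the lowest and replicate 1 no longer the highest. SERPINB7 (chr18:61420281-61472610, plus strand), or megsin, is the gene of Nagashima-type palmoplantar keratosis. Its level was 158, 98.3, 80.2 and 86.2 TPM, with a mean of 106 ± 35.8 TPM. Replicate 1 was the highest of these and the lowest when scaled over all genes, at 49.0 TPM against 70.2 to 87.1 TPM. In replicates 2 to 4 alone it ranged over 1.23-fold.

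SERPINB6 and SERPINB1 lie with SERPINB9 on chromosome 6. SERPINB6 (chr6:2948393-2972399, minus strand), an inhibitor of cathepsin G that is widely expressed, was at 96.8, 85.3, 69.4 and 119 TPM. Its mean was 92.6 ± 20.8 TPM (SD, n = 4), and its 1.71-fold range was the narrowest of the detected members. With all genes in the scaling, it was not, at 3.69-fold with 30.0 TPM in replicate 1 and 60.6 to 110 TPM in the others. SERPINB1 (chr6:2832566-2842283, minus strand), the leukocyte elastase inhibitor, was at 35.8, 123, 85.4 and 88.8 TPM, with a mean of 83.2 ± 35.9 TPM. It was the 1 detected member with its lowest value in replicate 1, where it stood at 0.361 times the mean of the others. Under the scaling over all genes, its range was 9.85-fold in place of 3.44-fold. Both proteases these serpins are best known for, ELANE and CTSG, were listed at 0 in every replicate.

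SERPINB8 (chr18:61637263-61656608, plus strand), an inhibitor of furin whose loss causes a peeling skin disorder, was at 43.4, 26.3, 30.5 and 23.1 TPM, with a mean of 30.9 ± 8.91 TPM (SD, n = 4). Its target FURIN was at 50.8, 201, 148 and 193 TPM. The convertase was lowest in replicate 1 under both scalings. The serpin was highest there, but lowest when scaled over all genes, at 13.4 TPM against 21.5 to 26.7 TPM. FURIN exceeded SERPINB8 in 4 of 4 replicates. In GENCODE, 9.42% of the 50-base windows of SERPINB8 also occur in the adjoining gene HMSD, whose mean was 14.1 ± 5.35 TPM.

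SERPINB3 (chr18:61322431-61329197, minus strand) was at 26.03, 27.3, 9.52 and 21.7 TPM, with a mean of 21.1 ± 8.12 TPM (SD, n = 4). SERPINB4 (chr18:61304493-61311553, minus strand) was at 15.3, 16.3, 2.89 and 16.1 TPM, with a mean of 12.7 ± 6.52 TPM. Both were lowest in replicate 3, SERPINB4 more so, and SERPINB4 was under both scalings. When all genes entered the scaling, SERPINB3 was about as low in replicate 1, with 8.06 TPM, as in replicate 3, with 8.32 TPM. Without replicate 3 SERPINB4 had a mean of 15.9 ± 0.519 TPM (n = 3), a range of 1.06-fold, when scaled over protein-coding genes. Scaled over all genes it was at 4.74, 14.5, 2.53 and 14.9 TPM, so replicate 1 then lay far below replicates 2 and 4. Behind the low value of replicate 3 were 46 SERPINB4 reads, against 659, 192 and 212 in replicates 1, 2 and 4.

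**Figure D1:**
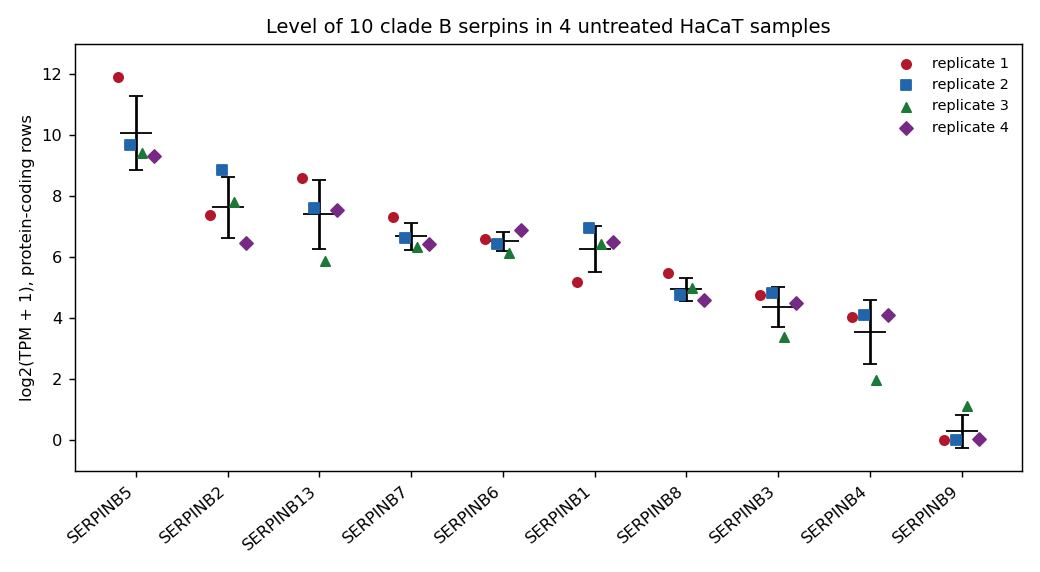
The level of each member as log2(TPM + 1), members ordered by mean TPM, with 1 symbol per replicate and the mean and SD (n = 4) in black. SERPINB5 is on top in all 4 replicates with replicate 1 far above the others, and SERPINB9 is at or near 0 in all but replicate 3.

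The ratio of SERPINB3 to SERPINB4 per length was 1.70 in replicate 1 (95% Clopper-Pearson interval 1.54 to 1.87), 1.68 in replicate 2 (1.40 to 2.01), 3.29 in replicate 3 (2.35 to 4.68) and 1.35 in replicate 4 (1.13 to 1.62). SERPINB3 was the higher of the pair in 4 of 4 replicates, and the interval of replicate 3 overlapped none of the others. These intervals include the error of counting alone, as no molecular identifiers mark copies of the same molecule. The pair shares many short stretches of sequence. Of the 50-base windows of the SERPINB3 transcript 23.9% also occur in SERPINB4, and 24.3% the other way, but of the 100-base windows only 3.40% and 3.45%. The values of the pair are therefore uncertain to the extent that the counting split shared reads, and the read length is not given in the sources used here.

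**Figure D2:**
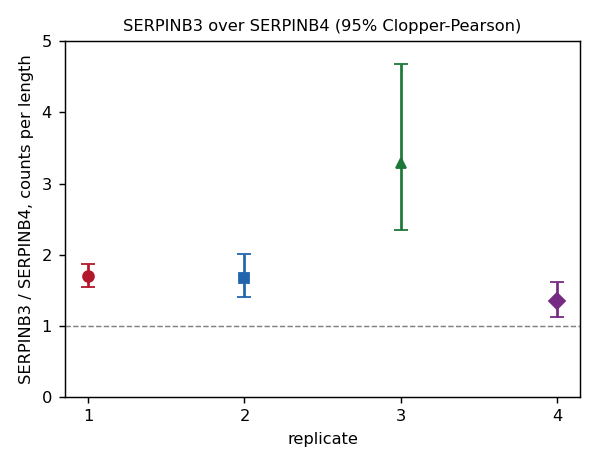
Ratio of SERPINB3 to SERPINB4, counts per length, in each replicate (x axis) with its 95% Clopper-Pearson interval, which covers counting error only; the dashed line is a ratio of 1. All 4 intervals lie above the line, and that of replicate 3, 2.35 to 4.68, lies above the other three.

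SERPINB9 (chr6:2887499-2903546, minus strand), the inhibitor of granzyme B that shields cytotoxic lymphocytes from their own granules, had 0, 0, 43 and 1 reads in replicates 1 to 4. In TPM this was 0, 0, 1.15 and 0.0323. A count of 0 allows up to 3 reads, or 0.0297 TPM in replicate 1 and 0.109 TPM in replicate 2, and the 1.15 TPM of replicate 3 lay above both limits. The fibroblast marker list was also high in that library for 2 of its 5 genes. COL1A2 was at 2.10 TPM in replicate 3 and at 0, 0.195 and 0 TPM in replicates 1, 2 and 4, and COL3A1 was at 2.72 TPM against 0.0750, 0.0822 and 0.685 TPM. The others of the list were not highest there. DCN (1.63, 0, 0.618 and 0 TPM) and LUM (3.35, 0, 1.21 and 0.381 TPM) were highest in replicate 1. COL1A1 (0.500, 4.92, 1.88 and 8.54 TPM) was highest in replicate 4. The list as a whole summed to 5.55, 5.20, 8.52 and 9.60 TPM, so replicate 4 was the highest on the sum. The part of these transcripts in the SERPINB9 reads was not tested. SERPINB9 overlaps the non-coding LOC101927730 on the opposite strand, which had 0, 0, 1 and 1 reads. With no statement that the counting used strand, the single SERPINB9 read of replicate 4 cannot be assigned to either. In GENCODE, 3.19% of the 50-base windows of SERPINB9 also occur in other genes, 301 in all, and 1.42% of its 100-base windows do. Whether reads from such windows are among the 43 of replicate 3 was not tested.

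In the order of the means, neighbouring members were compared within each replicate as differences of log2(TPM + 1), by an exact permutation test that flips signs (two-sided), adjusted over the 9 pairs. With 4 replicates no p can go below 0.13, so the tests cannot pass 0.05, and they measure only the spread between these replicates. The order of the members came from the means of these same replicates, so a positive difference is no support for that order. SERPINB5 exceeded SERPINB2 by 2.45 ± 1.63 (SD, n = 4) and in 4 of 4 replicates, with an exact p of 0.13 and an adjusted p of 0.375. SERPINB3 exceeded SERPINB4 by 0.82 ± 0.43 with the same exact p values and in as many replicates. SERPINB4 exceeded SERPINB9 by 3.26 ± 1.61, also in 4 of 4 and with the same exact p values. For these pairs the difference was larger than its SD, as it was for SERPINB1 over SERPINB8 (1.31 ± 1.10, 3 of 4 replicates, exact p = 0.25, adjusted 0.375).

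The middle of the order was not resolved. SERPINB2 and SERPINB13 differed by 0.23 ± 1.61, with SERPINB2 higher in 2 of 4 replicates (exact p = 0.75). SERPINB13 and SERPINB7 differed by 0.72 ± 0.81, SERPINB7 and SERPINB6 by 0.16 ± 0.48, SERPINB6 and SERPINB1 by 0.25 ± 0.87 and SERPINB8 and SERPINB3 by 0.58 ± 0.75, all within their SD. Ranked within a replicate, SERPINB2 took places 2 to 5, SERPINB13 places 2 to 6 and SERPINB1 places 3 to 7. SERPINB4 was ninth and SERPINB9 last in every replicate.

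Of the 9 detected members, 4 had a highest value over 4 times the lowest, SERPINB2, SERPINB4, SERPINB5 and SERPINB13. Among all detected protein-coding genes 26.4% ranged as widely. The median range was 3.44-fold over the detected members and 2.43-fold over all detected genes. In replicates 2 to 4 alone, 2 members, SERPINB2 and SERPINB4, still ranged over 4-fold, against 5.5% of all detected genes, and the medians were 1.71-fold and 1.62-fold. Scaled over all genes, 3 members ranged over 4-fold, SERPINB1, SERPINB2 and SERPINB4, while 48.8% of all detected genes did. SERPINB2 and SERPINB4 were the members that ranged this widely under both scalings.

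Members differed in which library held their highest and lowest value. In replicate 1, 4 members had their highest value, SERPINB5, SERPINB13, SERPINB7 and SERPINB8, all of them on chromosome 18. Of all detected genes 40.2% were highest there. With all genes in the scaling, SERPINB5 was the 1 member of the 9 that was highest in replicate 1, as were 3.75% of all genes then detected. SERPINB1 alone was lowest in replicate 1, as were 37.5% of all detected genes. Under the scaling over all genes, 6 members were lowest there, SERPINB1, SERPINB2, SERPINB3, SERPINB6, SERPINB7 and SERPINB8, as were 81.7% of all detected genes. In replicate 3, 5 members were lowest, SERPINB3, SERPINB4, SERPINB13, SERPINB6 and SERPINB7, against 40.2% of all detected genes. When all genes entered the scaling, 3 were, SERPINB4, SERPINB5 and SERPINB13, against 15.6%. A single replicate stood past the 95% limit of Dixon's test for an outlying value in 2 of the 9, replicate 3 of SERPINB4 and replicate 1 of SERPINB5, against 9.82% of all detected genes. Scaled over all genes, Dixon's limit was passed by 0 of the 9 and by 7.76% of all detected genes. SERPINB4 and SERPINB13 were lowest in replicate 3, SERPINB1 lowest in replicate 1 and SERPINB5 highest in it under both scalings.

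Markers of epidermal differentiation differed between these libraries too. Of 11 such genes 10 were detected, and the list summed to 1009, 607, 349 and 417 TPM, highest in replicate 1 and lowest in replicate 3. With all genes in the scaling, the sums were 312, 538, 305 and 388 TPM, highest in replicate 2 and still lowest in replicate 3. KRT1, the keratin of the first suprabasal cells, was at 124, 0.430, 0.545 and 0.219 TPM, and involucrin, IVL, at 202, 5.49, 4.06 and 14.9 TPM, both highest in replicate 1 under either scaling. When scaled over protein-coding genes, KRT10, TGM1, SPRR1A and SPRR1B were highest there too. In that scaling FLG, SPRR2A, KLK5 and KLK7 were highest in replicate 2, KLK5 at 255, 442, 257 and 294 TPM. LOR, not detected, was highest in replicate 4, at 0.328 TPM. Interferon-induced genes followed another pattern, with medians of 15.6, 299, 284 and 20.8 TPM over 15 genes, high in replicates 2 and 3. None of the detected members was high in both of those replicates and low in both others except SERPINB2, at 470 and 223 TPM against 166 and 87.6 TPM. Under the scaling over all genes, this held for SERPINB2 and also for SERPINB8. The part of differentiation, of the interferon-induced genes, or of GC content and length in the values of the members was not tested.

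**Figure D3:**
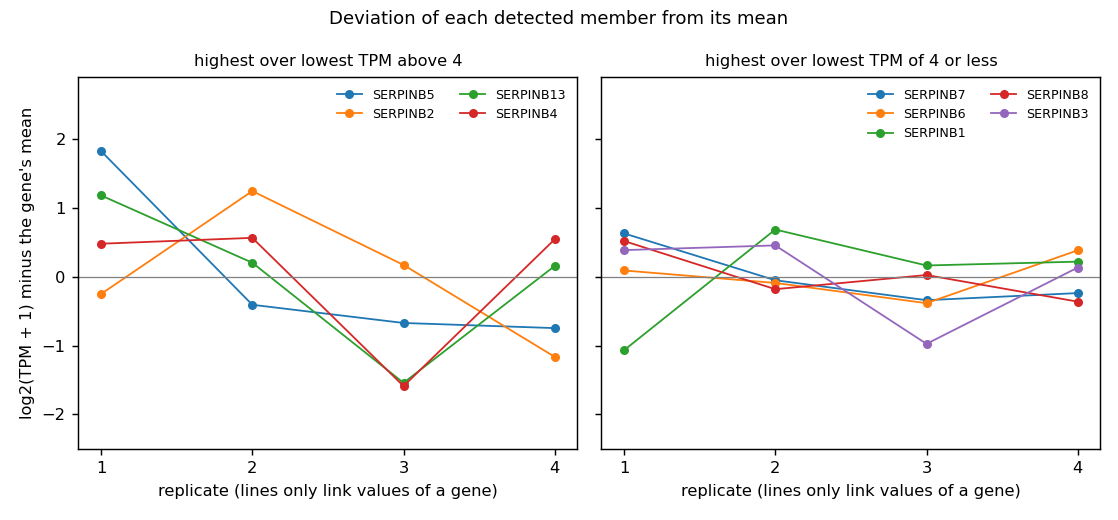
Deviation of log2(TPM + 1) from the mean of each gene in the 4 replicates, for the 4 members that ranged over 4-fold (left) and the other 5 detected members (right); lines only join the values of a gene. SERPINB5 peaks in replicate 1 (1.83), SERPINB2 in replicate 2 (1.24), and SERPINB4 and SERPINB13 dip in replicate 3 (-1.59 and -1.54); scaling over all genes would lower every point of replicate 1 against the others, and SERPINB13 is then no longer highest there.

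The genes closest in pattern to SERPINB5 and SERPINB13 were looked for among 8935 protein-coding genes with a mean TPM above 10, by the root-mean-square difference of centred log2(TPM + 1) over the 4 replicates. For SERPINB5 they were PLEKHF2 (0.114), TM4SF1 (0.121) and MXI1 (0.141). TM4SF1, a tetraspanin-like membrane protein, was at 575, 135, 108 and 121 TPM. The closest member was SERPINB7, in place 1107 with a difference of 0.694. For SERPINB13 they were DSP (0.0362), KITLG (0.0382) and DAAM1 (0.0407). DSP, the desmosomal plaque protein desmoplakin, was at 534, 271, 75.2 and 255 TPM, and KITLG, the ligand of the KIT receptor on melanocytes, at 70.5, 36.9, 9.69 and 35.8 TPM. All 3 were lowest in replicate 3, and highest in replicate 1 except when scaled over all genes, and their lengths of 9796, 5443 and 5926 bases exceed the 3276 bases of the median detected gene. SERPINB13 itself has 3207 bases. The closest members to it were SERPINB4 in place 537 (0.440) and SERPINB3 in place 789 (0.504). Likeness over 4 points is a description, and the points share library depth and composition.

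On chromosome 18, 7 members stand among 11 coding genes within 512465 bases, and on chromosome 6 the other 3 stand alone within 139834 bases. Levels along the larger cluster did not follow the order of the genes. SERPINB12, between SERPINB5 and SERPINB13, had a mean of 0.127 TPM, and SERPINB11, between SERPINB3 and SERPINB7, was listed at 0 in 4 of 4. SERPINB10 was at 5.66, 2.20, 0.996 and 1.33 TPM, highest in replicate 1, or in replicate 2 when scaled over all genes. On chromosome 6, SERPINB9 lies 45216 bases from SERPINB1 and 44847 bases from SERPINB6, and each of those was above 35 TPM in every replicate. When scaled over all genes, SERPINB1 was at 11.1 TPM and SERPINB6 at 30.0 TPM in replicate 1.

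**Figure D4:**
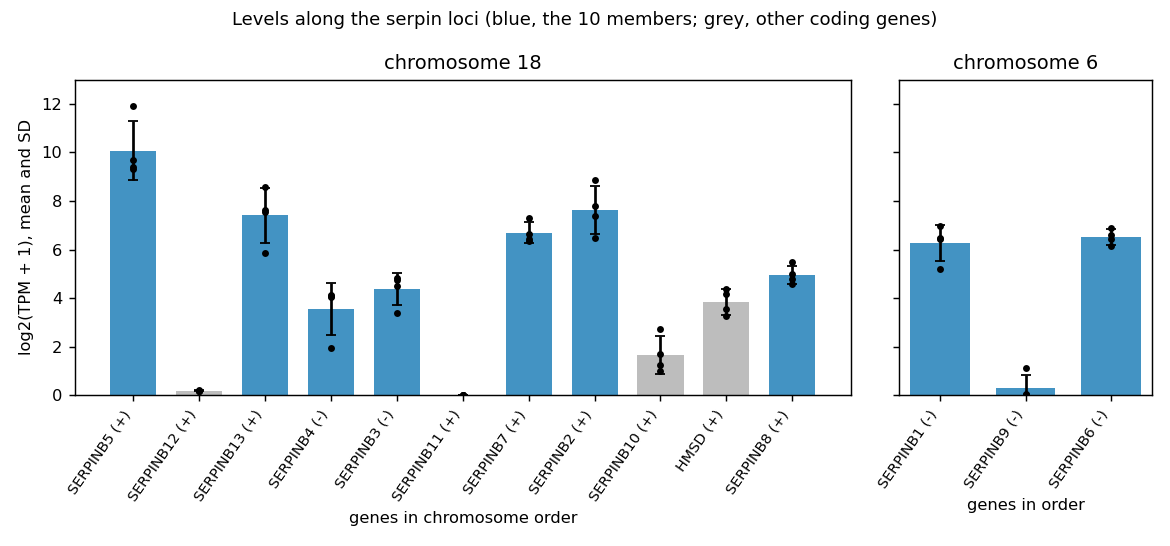
Level of the coding genes of both serpin clusters, in chromosome order with the strand in brackets, as log2(TPM + 1); bars are means, whiskers SD (n = 4), dots replicates, blue the 10 members and grey the other genes. Genes near 0, SERPINB12, SERPINB11 and SERPINB9, stand between neighbours with higher means.

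All 10 members matched RefSeq promoters of 300 bases (250 before and 50 after the start), 15 in all because SERPINB6 has 4 and SERPINB7 has 3. A median of 21 CpG dinucleotides was counted over 20534 promoters of coding genes. SERPINB9, the lowest member, had 35 and SERPINB1 27, whereas SERPINB2 had 1, SERPINB4 2, SERPINB3 3, SERPINB13 4 and SERPINB8 9. SERPINB5 had 16, and SERPINB6 ranged from 7 to 45 over its starts. The chromosome 18 members all lay under the median, although 5 of the 7 were above 30 TPM. Each motif was searched on both strands. TGANTCA, the AP-1 site, was found in 6 of the 15 member promoters, those of SERPINB2, SERPINB5, SERPINB7, SERPINB8 and SERPINB13, and in 6.18% of all promoters. In the printed SERPINB5 run it begins at position -146. TATAAA was found in 6 of 15 and in 9.18% of all, and in both SERPINB2 and SERPINB9 it begins at position -30. TTCNNNGAA, the STAT site, was found in 3 of 15, those of SERPINB1, SERPINB7 and SERPINB8, and in 6.85% of all. GAAANNGAA, a core of the interferon-stimulated element, was found in 0 of 15 and in 7.05% of all. A match describes letters and not binding.

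Proteases of the families that these serpins are known to inhibit were measured in the same cells, whether or not each is a target. Of the cysteine cathepsins, those named above as targets are CTSL, CTSK and CTSS. Of 11 granule serine proteases, among them CTSG, ELANE and the granzymes, 0 were detected and 8 had no read in any replicate. GZMB, the target of SERPINB9, had a mean of 0.171 TPM. Lysosomal cysteine cathepsins were present, with 9 of 11 detected. CTSB was the highest with a mean of 444 ± 113 TPM (SD, n = 4), followed by CTSH (338 ± 268), CTSZ (189 ± 83.2) and CTSL (85.2 ± 8.73). This order did not hold in each replicate. CTSH was at 736, 188, 172 and 254 TPM, above CTSB in replicate 1, where CTSB was at 414 TPM. CTSZ, at 85.6, 161, 233 and 275 TPM, was above CTSH in replicates 3 and 4. CTSK and CTSS, further targets of SERPINB3, were low, at 3.77 ± 1.49 and 3.24 ± 1.09 TPM. CTSL was at 74.2, 95.6, 85.7 and 85.5 TPM, between the levels of SERPINB13 above and of SERPINB3 below in 3 of 4 replicates, since SERPINB13 was under it in replicate 3. Of 13 serpins of other clades 6 were detected. SERPINH1, the collagen chaperone, was the highest of them with a mean of 377 ± 96.8 TPM, followed by SERPINE2 with 27.5 ± 19.8 TPM.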

How the data were processed

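RNA of 4 untreated HaCaT cultures, described as biological repeats, was sequenced. The authors deposited raw read counts per gene with a gene length and position, and beside them RPKM for replicates 1 and 2 and TPM for replicates 3 and 4, which equal the counts rescaled. The other deposited column used, the gene length in bases, was taken as given. The submitters' processing notes name HISAT2, HISAT, TopHat2, Bowtie2 and hg19 without roles. The counting program and annotation are not given in the sources used here. Because the deposited unit differs between replicates, TPM was computed from the deposited counts over protein-coding genes in all 4. A mean TPM above 1 was called detected. Differences used log2(TPM + 1), which understates changes of low genes. No differential test applies to 1 condition. The members and gene lists were chosen with earlier results of these data known, and the counts by replicate under both scalings, motifs and shared windows after the values were seen. Named genes were the members, detected genes of the lists, genes of the clusters, and the 3 genes nearest in pattern to the highest and to the widest-ranging member. Undetected genes of the lists were named outside this rule, some for being at or near 0, and COL1A2 and COL3A1 after their values in replicate 3 were seen. Alternatives were another pseudocount (0.1 or 0), detection limits, range limits, TPM over all genes, the deposited values, no length correction, reference exon lengths (GENCODE release 29, found for 97.1% of genes), upper-quartile scaling and leaving out each replicate. The range count was tested on simulated data. Scripts ran in Python 3.11.15 with SciPy 1.17.1, NumPy 2.4.6 and pandas 2.3.3, and plots were drawn with matplotlib 3.10.9.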

Additional observations from a re-analysis of the deposited data

Results flagged for a closer look

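Among 24 sets of 4 values, 5 held a replicate so far from the others that its gap to the nearest, divided by the whole range, passed the 95% limit of Dixon's test, which chance gives in about 1 of 20 sets, or 1.2 here. In these libraries 9.82% of all detected genes passed it. The gap was 0.926 of the range for SERPINB4 in replicate 3 and 0.946 for SERPINB5 in replicate 1. It was 0.972 for SERPINB9 in replicate 3, where 43 reads stood against 0, 0 and 1. Differences within replicates held the other two, SERPINB13 minus SERPINB7 with 0.830 and SERPINB4 minus SERPINB9 with 0.974, both in replicate 3 and both made from values already given. In 4 of the 5 the outlying library was replicate 3. With all genes in the scaling, neither SERPINB4 nor SERPINB5 passed the limit.

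Inside SERPINB5, on the same strand, 2 genes outside the comparisons had reads in every replicate. The pseudogene ATP5G1P6 had 470, 35, 26 and 37 reads, 26 at the lowest, and the sense-intronic ENSG00000269989.1 had 396, 18, 4 and 16, 4 at the lowest. Each had most reads in replicate 1, the deepest library, and ATP5G1P6 came to 0.162 to 0.293% of the SERPINB5 count.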

How the results depend on the processing

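No paired analysis was possible because all 4 samples belong to 1 group, and differences between genes were taken within each replicate from the start. Of 98 differences between neighbouring members recomputed under alternatives, 90 kept their sign and 8 reversed, none of them among the pairs whose difference exceeded its SD. The other scalings, the deposited values and the pseudocounts keep the order of a pair within each replicate, so they could hardly reverse a sign. All 8 reversals came from changed lengths or from a replicate left out. SERPINB2 minus SERPINB13 became -0.34 without length correction and ran from -0.35 (without replicate 3; -0.12 without replicate 2) to 0.70 when 1 replicate was left out. SERPINB6 minus SERPINB1 became -1.25 with reference exon lengths, which are 8148 bases for SERPINB6 against 3032 deposited, and ran from -0.13 (without replicate 1) to 0.51. SERPINB7 minus SERPINB6 became -0.19 without length correction and ran from -0.016 (without replicate 1) to 0.37, and SERPINB8 minus SERPINB3 became -0.021 with reference exon lengths. The cause of the other reversals was not tested. The number of members with a wide range, 4 at the limit of 4-fold, was 0 at a limit of 8-fold and 2 to 3 when 1 replicate was left out, namely 2 without replicate 1 (SERPINB2 and SERPINB4) and 2 without replicate 3 (SERPINB2 and SERPINB5). With detection called anew over the replicates kept, 4.99% of all genes then detected ranged over 4-fold without replicate 1. The share was 24.1% without replicate 2, 18.7% without replicate 3 and 24.1% without replicate 4. The 5.5% given earlier for replicates 2 to 4 is over genes detected by the mean of all 4. With the values as deposited the number of members was 3 (SERPINB1, SERPINB4 and SERPINB5), where both the unit and the scaling over all genes differ from the values reported. Of all genes then detected, 45.7% ranged as widely. The number of members detected was 9 or 10 under every alternative. Of 109 levels, 97 moved by less than 1 SD and 12 by more. A pseudocount of 0 gives no value for SERPINB9. Upper-quartile scaling shifted values by -0.08 to 0.08 on the log2 scale. Depth limits SERPINB9, with 0 to 43 reads, and 4 replicates limit every comparison.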

Other observations

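Beyond the serpins' direct targets, the proprotein convertases related to FURIN were all detected. PCSK5 was at 45.4, 23.8, 8.78 and 18.8 TPM, highest in replicate 1, except when scaled over all genes, and lowest in replicate 3. PCSK7 was at 27.7, 54.9, 44.2 and 53.0 TPM, lowest in replicate 1 like FURIN under both scalings. The inflammatory caspases, which some viral serpins inhibit, were led by CASP4 with 174 ± 71.6 TPM (SD, n = 4), followed by CASP1 with 37.7 ± 8.36 TPM, while CASP5 had 1 read in replicate 1 and 0 in the others. CASP4 was highest in replicate 1, at 278 TPM, or in replicate 3, at 143 TPM, when scaled over all genes.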
